A study of Mus musculus with 6 samples.

Results

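The genes described here are 46 mouse genes of the MYC transcription factor family, of RNA polymerase I and of ribosome assembly in the nucleolus, out of 48440 genes in the deposited count table. They were chosen by name from a list fixed with earlier results of these data known, and all 46 symbols were found in the table. The study measured poly(A) RNA of mouse ovarian surface epithelial cells, a thin sheet that coats the ovary, 7 days after adenoviral transduction. Cells labelled wild type had received a virus carrying GFP alone (Ad-GFP, 3 libraries). Cells labelled as knocked out for Lats1 and Lats2 had received a virus carrying Cre recombinase and GFP (Ad-Cre-GFP, 3 libraries). LATS1 and LATS2 are the Hippo pathway kinases that restrain the coactivators YAP and TAZ. Strain, age and passage, and whether the control cells carried Cre-sensitive Lats alleles, were not stated in the labels. Loss of the 2 kinases, exposure to Cre and any difference between cultures cannot be told apart.

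MYC proteins pair with MAX and bind DNA at the E-box CACGTG, and MXD proteins, MXI1 and MNT compete with MYC for MAX. Ribosome assembly starts when RNA polymerase I copies the ribosomal DNA repeats in the nucleolus. The long precursor RNA is modified by guide RNA particles of the box C/D and box H/ACA classes, cut, folded and joined with ribosomal proteins. Many genes of this machinery are known targets of MYC, and their level is known to follow cell growth and proliferation.

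The libraries held 18690235 to 30304033 counts, and every Ad-Cre-GFP library was deeper than every Ad-GFP library. Levels are CPM, the counts scaled to a library of 1000000 after TMM scaling. Changes are log2 fold changes of Ad-Cre-GFP over Ad-GFP with standard errors (SE) and Benjamini-Hochberg adjusted p-values from edgeR's quasi-likelihood test over all 14811 tested genes. A gene was called when its adjusted p was under 0.05. Lats1 was at 150.8 to 168 CPM in Ad-GFP and 36.0 to 38.6 CPM in Ad-Cre-GFP libraries. Lats2 was at 127 to 131 and 96.7 to 100.6 CPM. Both genes fell (-2.10 ± 0.04 and -0.39 ± 0.03), but whole-gene counts do not measure the deletion. Markers of ovarian surface epithelium were present and summed to 4120 to 4160 CPM in Ad-GFP and 3800 to 3840 CPM in Ad-Cre-GFP libraries, with 5 rises (Msln, Krt7, Upk1b, Upk3b and Krt18) and 5 falls (Krt19, Gata4, Wt1, Cdh1 and Krt8) among 10 tested. In bulk RNA, fewer cells of a type and less RNA per cell cannot be told apart. On the second principal component Ad-GFP replicate 3 lay at -18.69, against 8.85 and 11.1 for the remaining controls.

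Nearly the whole list was higher after Cre. Of the 46 members, 45 passed the filter on low counts, 44 of these rose, none fell, and Polr1c was not called. Over all tested genes 69.8% were called, 34.0% higher and 35.8% lower. Among the 9463 tested genes with a mean of at least 10 CPM, where 44 members lie, 40.0% were called higher and 38.8% lower. The median log2 change was 0.78 for the tested members and -0.01 for all tested genes. The list was chosen with earlier results of these data known, so its difference from all genes is a description without a test. For 44 members every Ad-Cre-GFP library lay above every Ad-GFP library, a pattern seen in 35.4% of tested genes; groups that did not overlap in either direction were seen in 73.0%.

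The changes were moderate in size. For 10 members the called change reached 2-fold, as it did for 13.8% of all tested genes counted in either direction. Outside the MYC family the log2 changes ran from 0.02 to 1.45 with a standard deviation of 0.30 across 42 genes. Summed over all 46 members, the level was 3960, 4008 and 3754 CPM in the Ad-GFP libraries and 6761, 6653 and 6697 CPM in the Ad-Cre-GFP libraries. The sum in the Ad-Cre-GFP libraries was 1.72 times that in the controls. Ad-GFP replicate 3 was the lowest control for 33 of the 46 members, against 35.4% of tested genes. Without it 44 members rose, with a median of 0.74.

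**Figure D1:**
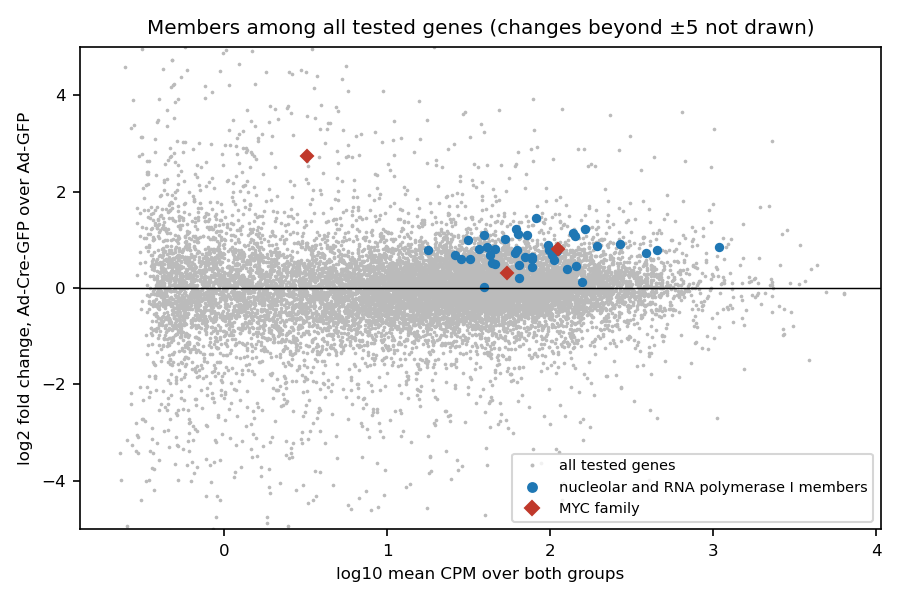
Log2 fold change (Ad-Cre-GFP over Ad-GFP) against the log10 mean CPM of both groups for the 14811 tested genes (grey, changes beyond ±5 not drawn), the 42 nucleolar and RNA polymerase I members (blue circles) and the 3 tested MYC family members (red diamonds). The members lie at or above 0, from 0.02 for Polr1c to 2.74 for Mycl, whereas the median of all tested genes is -0.01.

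Of the MYC family, Myc was the main transcript, and Mycl had the largest rise of all members. Myc (ENSMUSG00000022346, chromosome 15, 61985391 to 61990374, GRCm38), the broadly expressed family member, was at 80.7, 81.0 and 81.7 CPM in the Ad-GFP libraries and 142, 144 and 138 CPM in the Ad-Cre-GFP libraries. The controls lay within about 1 CPM of each other and far below the Ad-Cre-GFP libraries. Myc thus rose 1.74-fold (log2 change 0.80 ± 0.03 SE, adjusted p = 2.197e-15).

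Mycl (chromosome 4, 122995652 to 123002485), the family member first found in lung cancer, had 26, 20 and 10 counts in the Ad-GFP libraries and 155, 174 and 159 in the Ad-Cre-GFP libraries. These counts equal 1.19, 0.78 and 0.53 CPM against 5.30, 5.82 and 5.80 CPM, and the groups were far apart. The log2 change was 2.74 ± 0.18 (adjusted p = 1.397e-11). Mycn, the family member of neural tumors, had 1, 2 and 3 counts in the controls and 5, 4 and 8 after Cre. It was too low to be tested, and no fold change is given. Its control counts did not exceed 3, the level that an observed count of 0 still allows, but none of them was 0.

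Max (chromosome 12, 76937269 to 76962201), the shared partner, was at 47.1, 49.3 and 48.2 CPM in the Ad-GFP libraries and 57.7, 60.4 and 61.4 CPM in the Ad-Cre-GFP libraries. It rose with the groups apart, but by less than Myc (log2 change 0.31 ± 0.04, adjusted p = 6.758e-07). The ratio of Max to Myc was 0.584 to 0.608 in the controls and 0.407 to 0.445 in the Ad-Cre-GFP libraries. Per kilobase of merged exons the levels in the controls were 29.9 CPM for Myc, 13.4 CPM for Max, 0.21 CPM for Mycl and 0.029 CPM for Mycn. After Cre they were 52.0, 16.6, 1.40 and 0.060 CPM in the same order. Ratios of counts between genes, such as that of Max to Myc, are not per length and serve to compare libraries. Despite its fold change, Mycl thus stayed far below Myc.

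**Figure D2:**
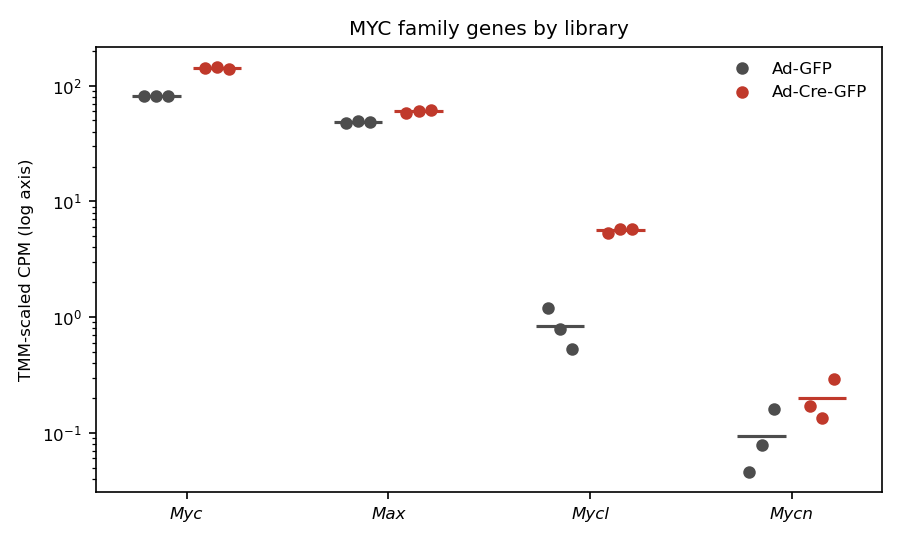
TMM-scaled CPM on a log axis for Myc, Max, Mycl and Mycn in each library, with Ad-GFP in grey and Ad-Cre-GFP in red; points are libraries and bars are the means of 3. Myc, Max and Mycl are higher in every Ad-Cre-GFP library than in every Ad-GFP library, and Mycn stays at 1 to 8 counts per library.

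The promoters of the members were read for the E-box that MYC and MAX bind, since the members rose together. RefSeq promoter windows (GRCm38.p6, 250 bases before to 50 after a gene's start) were found for 40 members; Myc, Rrs1, Bop1, Npm1, Fbl and Rrp12 were not analysed here. The letters CACGTG, which read the same on both strands, were in the windows of 8 of these members (20%): Max, Rrn3, Nop2, Utp20, Pes1, Ltv1, Tsr1 and Wdr43. They were in 8.09% of the 27025 genes of the promoter table, in 11.7% of the 9869 tested genes with a window and in 7.15% of all 32851 windows. The windows around the motif are shown for the members with a match before the start, for Utp20, the member with the largest rise among those with a match, and for Pes1, which had the smallest rise of the nucleolar members with a match. Capitals mark CACGTG, and each sequence is written along the gene's strand with its place in GRCm38.
Max (chr12:76962234-76962263, minus strand, motif from 3 bases before the start): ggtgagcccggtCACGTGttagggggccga
Rrn3, distal (chr16:13780472-13780501, plus strand, 215 bases before the start): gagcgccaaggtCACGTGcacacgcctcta
Rrn3, proximal (chr16:13780639-13780668, plus strand, 48 bases before the start): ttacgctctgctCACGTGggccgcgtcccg
Nop2 (chr6:125131811-125131840, plus strand, 60 bases before the start): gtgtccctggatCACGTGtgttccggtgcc
Utp20 (chr10:88826765-88826789, minus strand, 38 bases into the transcript): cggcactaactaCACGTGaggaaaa
Pes1 (chr11:3963965-3963994, plus strand, 3 bases into the transcript): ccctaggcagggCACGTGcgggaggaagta
Rrn3 was the only member with more than 1 match. The 8 members with a match had a median log2 change of 0.66 (0.31 to 1.22), and the 31 tested members with a window but no match had a median of 0.79 (0.02 to 2.74). The median was not higher in members with the motif, a description without a test. The TEAD motif GGAATG, searched with its reverse complement CATTCC, was in the windows of 3 members (7.5%), Polr1b, Ubtf and Rrn3, against 14.4% of the tested genes with a window and 16.6% of the genes in the promoter table. A match is a run of letters and does not show binding, and a missing match says only that the letters are not in the window.

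The tested MXD genes, Mxi1 and Mnt, whose products compete for MAX, went the other way. Of 9 listed MAX network genes, 8 were tested, with a median log2 change of -0.36. Of these, 5 fell, 1 rose and 2 (Mga and Mlxip) were not called. Over all tested genes 35.8% were called lower. Mxi1, a repressor that pairs with MAX, was at 90.8, 87.9 and 93.6 CPM in the Ad-GFP libraries and 28.7, 27.8 and 30.0 CPM in the Ad-Cre-GFP libraries. It fell without overlap of the groups (-1.65 ± 0.04, adjusted p = 9.27e-19). In the controls Mxi1 counts were 1.08 to 1.15 times those of Myc, and in the Ad-Cre-GFP libraries 0.192 to 0.217 times.

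Mxd4, another such repressor, fell from 109, 111 and 123 CPM to 42.7, 44.6 and 46.6 CPM (-1.36 ± 0.05). Mnt (-0.64), Mxd3 (-0.46) and Mxd1 (-0.26) fell too, and the groups overlapped for Mxd3. Mlx, which binds MONDO factors in place of MAX, rose by 0.13 ± 0.05. Of 17 genes for MYC turnover and cofactors, 12 rose, 3 fell and 2 were not called (median 0.41). The largest rises were those of Skp2 (1.09 ± 0.06), a ubiquitin ligase subunit, and Cip2a (0.74 ± 0.04), which protects MYC from dephosphorylation. The falls were small: Zbtb17, which encodes the MYC partner MIZ1, changed by -0.18 ± 0.06, the deubiquitinase Usp28 by -0.16 ± 0.06 and Huwe1 by -0.14.

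The abundant nucleolar phosphoproteins and the GTPase Gnl3 rose as a tight group, with log2 changes from 0.73 to 0.91 and all 4 higher in every Ad-Cre-GFP library. Nolc1, a chaperone of guide RNA particles, had the largest rise. It was at 188, 197 and 173 CPM in the Ad-GFP libraries and 357, 344 and 348 CPM in the Ad-Cre-GFP libraries (0.91 ± 0.04, adjusted p = 5.286e-14). Ncl, which encodes nucleolin, rose from 782 ± 33.9 to 1405 ± 19.8 CPM (SD, n = 3; log2 change 0.85). Gnl3, which encodes nucleostemin, rose by 0.89. Npm1, the histone and ribosome chaperone nucleophosmin, rose by 0.73. For Npm1, 7 similar pseudogenes (at least 200 aligned bases at 90% identity) held 54.0% of the joint counts, so its level is uncertain. Their summed counts differed in the same direction, with a log2 ratio of means of 0.67, and the gene with its copies had one of 0.70.

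The box C/D core proteins, which carry the RNAs that guide 2′-O-methylation, all rose. Nop56, a scaffold subunit, was at 86.8, 90.3 and 83.3 CPM in the Ad-GFP libraries and 198, 189 and 186 CPM in the Ad-Cre-GFP libraries. The groups were well apart, and it had the largest rise of the 3 (1.13 ± 0.04, adjusted p = 3.19e-17). Its partner Nop58 rose by 0.88. The methyltransferase Fbl, fibrillarin, was at 19.1 to 24.9 CPM in the controls and 30.5 to 36.1 CPM after Cre, a rise of 0.60 ± 0.10. The ratio of Nop56 to Nop58 was 0.625 to 0.633 in the controls and 0.722 to 0.771 after Cre.

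The box H/ACA core proteins, which carry the RNAs that guide pseudouridine formation and also bind telomerase RNA, rose in all 4 cases. Dkc1, the pseudouridine synthase dyskerin, had the largest rise. It was at 49.3, 47.9 and 39.3 CPM in the Ad-GFP libraries, where replicate 3 was low, and at 98.0, 97.5 and 100.4 CPM in the Ad-Cre-GFP libraries (1.11 ± 0.06, adjusted p = 1.08e-08). Gar1 (0.69), Nhp2 (0.59) and Nop10 (0.51) rose less. The ratio of Dkc1 to Nop10, subunits of the same particle, was 1.05 to 1.33 in the controls and 1.81 to 1.87 after Cre.

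Guide RNAs themselves are mostly released from introns and are not captured by poly(A) selection. In GENCODE release M21, 8 members hold annotated small nucleolar RNA genes on their own strand, 29 in all: Ncl, Gnl3, Nop56, Nop58, Dkc1, Taf1d, Wdr43 and Tsr1. That is 17.4% of the members, against 1.73% of the 12003 tested protein-coding genes. All 8 rose, by 0.52 to 1.13. Of 16 other tested host RNAs from a fixed list, 13 rose, 1 fell and 2 were not called, with a median of 0.35. The largest called changes were the rises of Snhg15 (1.08 ± 0.07) and Epb41l4aos (0.67 ± 0.11) and the fall of Snhg18 (-0.92 ± 0.19).

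RNA polymerase I genes had a smaller median rise than the other role groups. Of 7 members, 6 rose and 1 was not called, with a median of 0.52. Polr1b, the second-largest catalytic subunit, had the largest rise, from 34.0, 34.1 and 32.4 CPM to 58.7, 59.7 and 57.8 CPM (0.81 ± 0.04, adjusted p = 2.047e-13). The groups were far apart, whereas Polr1c overlapped. Polr1c (chromosome 17, 46243920 to 46248054), a subunit shared with RNA polymerase III, was at 40.4, 37.7 and 38.5 CPM in the Ad-GFP libraries and 39.0, 37.5 and 41.2 CPM in the Ad-Cre-GFP libraries (0.02 ± 0.05, adjusted p = 0.794).

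The largest subunit, Polr1a, rose by only 0.40 ± 0.03, so the ratio of Polr1b to Polr1a was 0.297 to 0.315 in the controls and 0.39 to 0.422 after Cre. Polr1e, a subunit bound at initiation and elongation, rose by 0.79. Rrn3, which encodes the initiation factor TIF-IA, rose by 0.68, and Taf1d, a subunit of the promoter selectivity factor SL1, by 0.52. Ubtf, which encodes the upstream binding factor UBF, changed least of the called members (0.12 ± 0.03, adjusted p = 0.00142). A pseudogene held 14.3% of the joint counts of Taf1d and its copy, and the log2 ratio with the copy was 0.51.

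The other RNA polymerase I genes were mixed. Of 17 further subunits and factors, 7 rose, 3 fell and 7 were not called, with a median of 0.13. This share of rises, 41.2%, was near the 40.0% among tested genes with a mean of at least 10 CPM. Falls were fewer, 3 of 17 against 38.8% of those genes. Tcof1, which encodes the nucleolar factor treacle, rose from 42.5 ± 2.62 to 86.7 ± 3.16 CPM (1.02 ± 0.04). The polymerase I subunits Cd3eap (0.55 ± 0.05) and Twistnb (0.51) rose, and Znrd1 was not called (0.02). Baz2a, a subunit of the nucleolar remodelling complex that silences ribosomal DNA, fell from 152 ± 3.05 to 98.7 ± 2.92 CPM (-0.62 ± 0.03). The deacetylase Sirt7 fell too (-0.38 ± 0.06).

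RNA polymerase III, which makes 5S ribosomal RNA and tRNA, was measured by 20 genes. Of these, 13 rose, 4 fell and 3 were not called, with a median of 0.14. Bdp1, a subunit of the initiation factor TFIIIB, rose by 0.40 ± 0.04. Polr3gl, the alternative form of the subunit Polr3g, fell (-1.18 ± 0.10), as did Maf1, the repressor of RNA polymerase III (-0.75 ± 0.04). Polr3g itself rose by 0.38.

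All 11 members of small subunit assembly rose, with a median of 0.78. Rrp12 (chromosome 19, 41862851 to 41896173), a factor for maturation and export of both subunits, had the largest rise of any nucleolar member. It was at 44.1, 47.5 and 39.2 CPM in the Ad-GFP libraries and 122, 121 and 116 CPM in the Ad-Cre-GFP libraries. This was a 2.73-fold rise (1.45 ± 0.05, adjusted p = 7.546e-14). Among proteins of the small subunit processome, the particle that makes the first cuts in the precursor, the U3 protein Rrp9 rose by 1.23 and the scaffold Utp20 by 1.22. Utp15 (0.86), Nop14 (0.78), Wdr43 (0.77), Wdr75 (0.64) and Noc4l (0.61), which all belong to or bind this particle, rose less. The late factors Bysl (1.02), Ltv1 (0.64) and Tsr1 (0.61) also rose.

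Of 44 further small subunit factors, 43 were tested. Of these, 41 rose, Riok3 fell and Imp3 was not called, with a median of 0.53. The RNA methyltransferase Dimt1 (1.13 ± 0.11, from 3.47 to 7.61 CPM) and the late factor Pno1 (0.85 ± 0.04) had the largest rises. Riok3, an atypical kinase, fell from 106 ± 0.746 to 80.7 ± 0.928 CPM (-0.40 ± 0.03).

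All 10 members of large subunit assembly rose, with a median of 0.81 and a range from 0.44 to 1.11. Rrs1, a factor for docking of the 5S particle, had the largest rise. It was at 42.2, 41.9 and 36.7 CPM in the Ad-GFP libraries and 85.0, 88.4 and 88.7 CPM in the Ad-Cre-GFP libraries (1.11 ± 0.05, adjusted p = 3.91e-15). Its 3 pseudogenes, with 7.03% of the joint counts, were lower after Cre, with a log2 ratio of means of -2.61, and the ratio of the gene with its copies was 0.83. Rrp1b (1.10) and the RNA methyltransferase Nop2 (1.09) rose nearly as much. Nop16 (0.82), Noc2l (0.80), Nip7 (0.74) and Noc3l (0.48), the partner of Noc2l, rose as well.

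The 3 subunits of the PeBoW complex, which processes the precursor of the large subunit RNA, rose unequally. Wdr12 rose by 1.00, Bop1 by 0.45 and Pes1 by 0.44. The ratio of Wdr12 to Pes1 was 0.306 to 0.331 in the controls and 0.45 to 0.498 after Cre, without overlap. The ratio of Bop1 to Pes1 was 1.81 to 1.93 and 1.85 to 1.91, with full overlap. Pseudogenes held 19.5% of the joint counts of Wdr12, and with them the log2 ratio was 1.02.

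Of 44 further large subunit factors, 43 were tested, 40 rose, none fell, and Efl1, Las1l and Ddx54 were not called, with a median of 0.55. Rbm28, a nucleolar RNA-binding protein, was at 101, 104 and 97.7 CPM in the Ad-GFP libraries and 363, 351 and 346 CPM in the Ad-Cre-GFP libraries. Its rise (1.81 ± 0.03, adjusted p = 3.355e-21) was larger than that of any nucleolar member. Mdn1, the large ATPase that strips assembly factors, rose by 1.10 ± 0.05.

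The DEAD-box helicases, enzymes that remodel RNA during assembly, all rose. Ddx21, which works in RNA polymerase I transcription and guide RNA release, was at 333, 343 and 315 CPM in the Ad-GFP libraries and 583, 566 and 569 CPM in the Ad-Cre-GFP libraries (0.79 ± 0.03, adjusted p = 2.85e-15). The groups did not overlap. Ddx18 rose by 0.70 and Ddx10 by only 0.21 ± 0.04. Pseudogenes held 61.2% of the joint counts of Ddx18, and with them the log2 ratio was likewise 0.70.

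**Figure D3:**
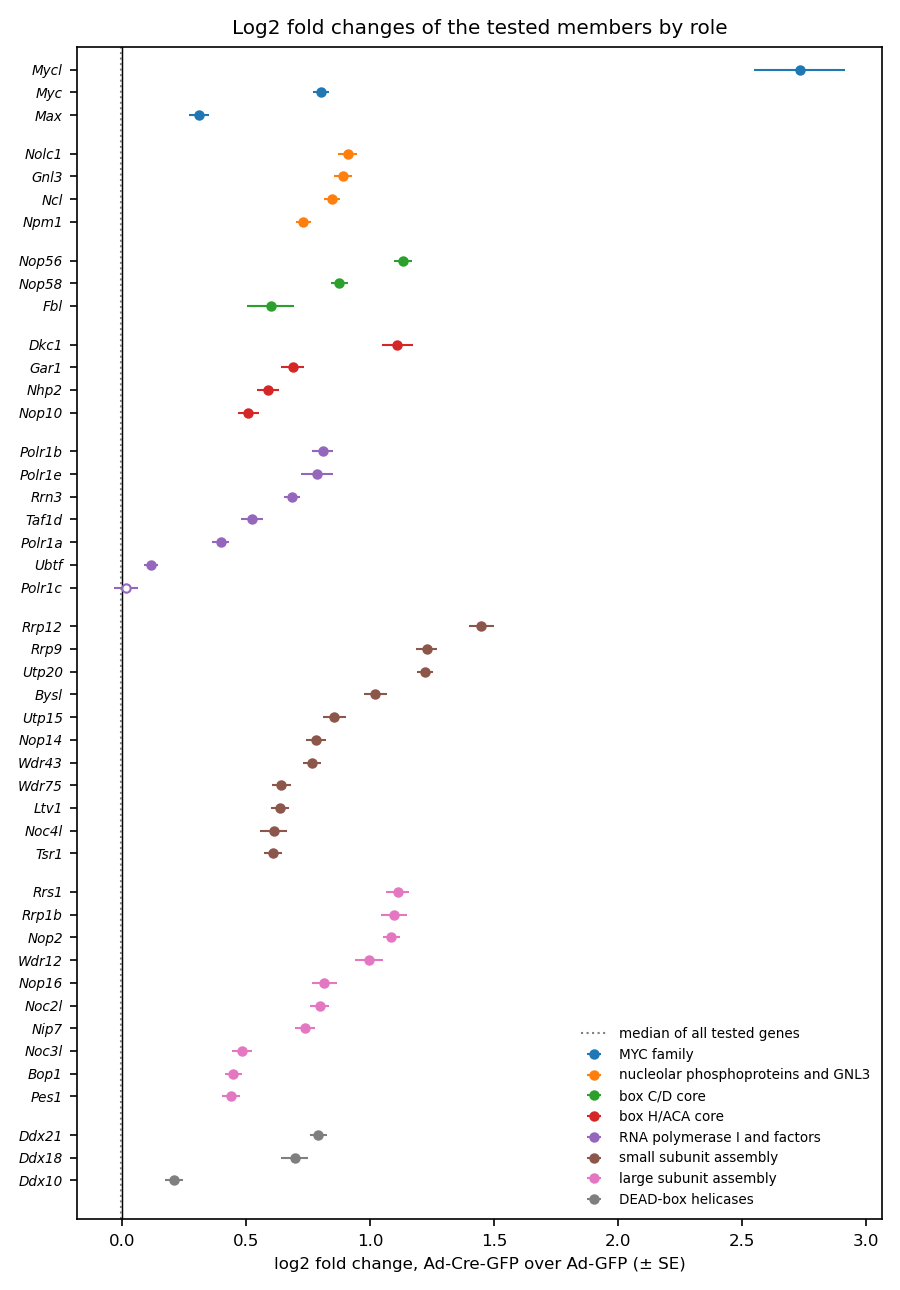
Log2 fold change (Ad-Cre-GFP over Ad-GFP) with its SE for the 45 tested members, coloured by role; filled points were called and the open point, Polr1c, was not. All called members lie above 0, and the RNA polymerase I genes spread from 0.02 for Polr1c to 0.81 for Polr1b.

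**Figure D4:**
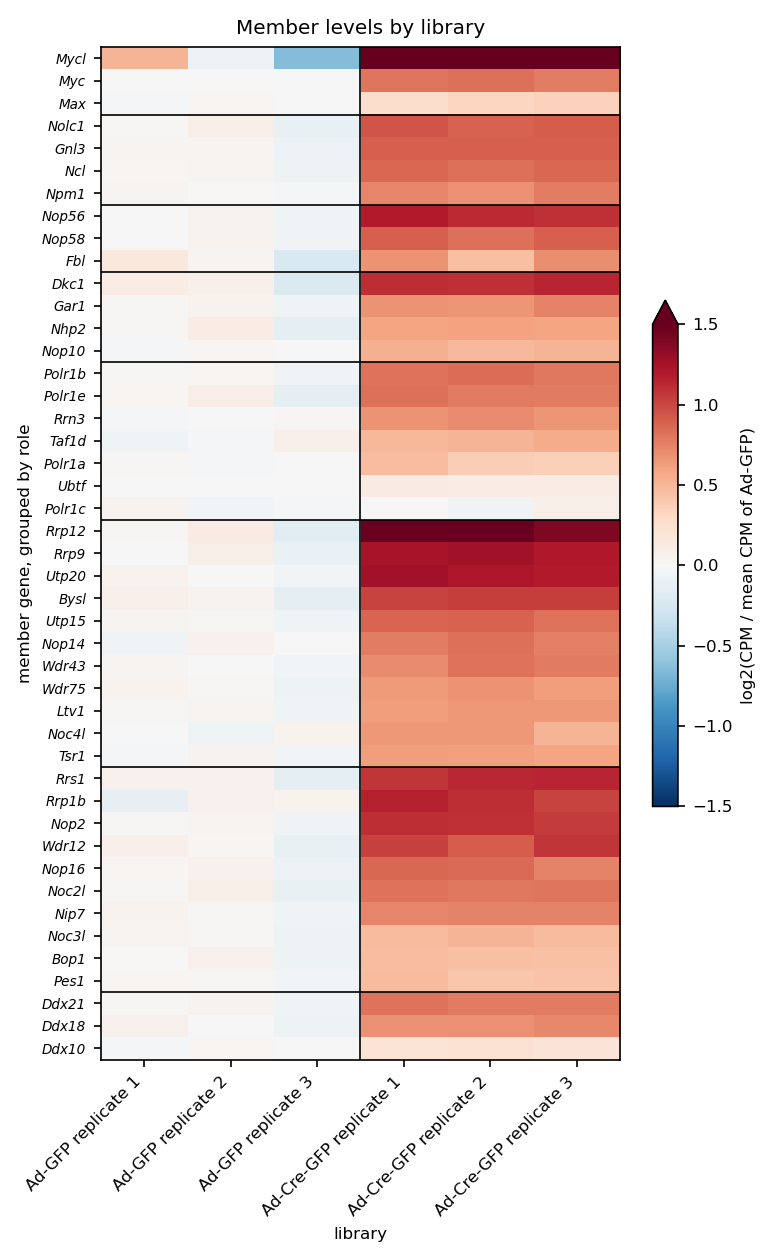
Level of each tested member in each library as the log2 ratio to the mean CPM of the 3 Ad-GFP libraries, with members grouped by role and the colour scale ending at ±1.5. The 3 Ad-Cre-GFP columns are above the controls for 44 members, Ad-GFP replicate 3 is the lowest control for most genes, and Polr1c shows no step between the groups.

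Genes near the list were compared next. Of 28 listed MYC target genes outside the nucleolus, 27 were tested, of which 24 rose and 3 fell, with a median of 0.59. Odc1, the first enzyme of polyamine synthesis, rose from 117 ± 9.50 to 333 ± 6.12 CPM (1.51 ± 0.04). Mthfd2, of mitochondrial folate metabolism, rose by 1.07 ± 0.12. Ldha, the lactate dehydrogenase of glycolysis, fell from 1070 ± 34.8 to 495 ± 5.82 CPM (-1.11 ± 0.03), and Ccnd2 (-0.24 ± 0.03) and Tfrc (-0.09) fell slightly.

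The ribosomal proteins themselves changed much less than the factors that assemble them. Of 79 cytosolic ribosomal protein genes, 34 rose, 6 fell and 39 were not called, with a median of 0.12. The share that rose, 43.0%, was near the 40.0% of tested genes with a mean of at least 10 CPM. Falls were fewer, 6 of 79 against 38.8% of those genes. Their summed level was 13200 to 13800 CPM in the Ad-GFP libraries and 13700 to 14300 CPM in the Ad-Cre-GFP libraries, which overlap. Rpl27 (0.81 ± 0.06) and Rpl12 (0.60 ± 0.08) had the largest rises, and Rpl39 (-0.19 ± 0.05) and Rpsa (-0.17 ± 0.03) the largest falls. Many ribosomal protein genes have near-identical pseudogenes, so their counts are uncertain.

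Cell cycle genes moved with the members. All 20 DNA replication genes rose, with a median of 0.91, led by Rrm2 (1.65 ± 0.08) and Cdt1 (1.39 ± 0.08). All 20 mitotic genes rose, with a median of 0.56, led by Kif23 (0.94 ± 0.04) and Bub1 (0.77 ± 0.05). The DNA replication genes summed to 1200 to 1420 CPM in the Ad-GFP libraries and 2840 to 2930 CPM in the Ad-Cre-GFP libraries, and the mitotic genes to 2320 to 2640 and 3510 to 3630 CPM. The part of proliferation in the rise of the members was not tested.

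**Figure D5:**
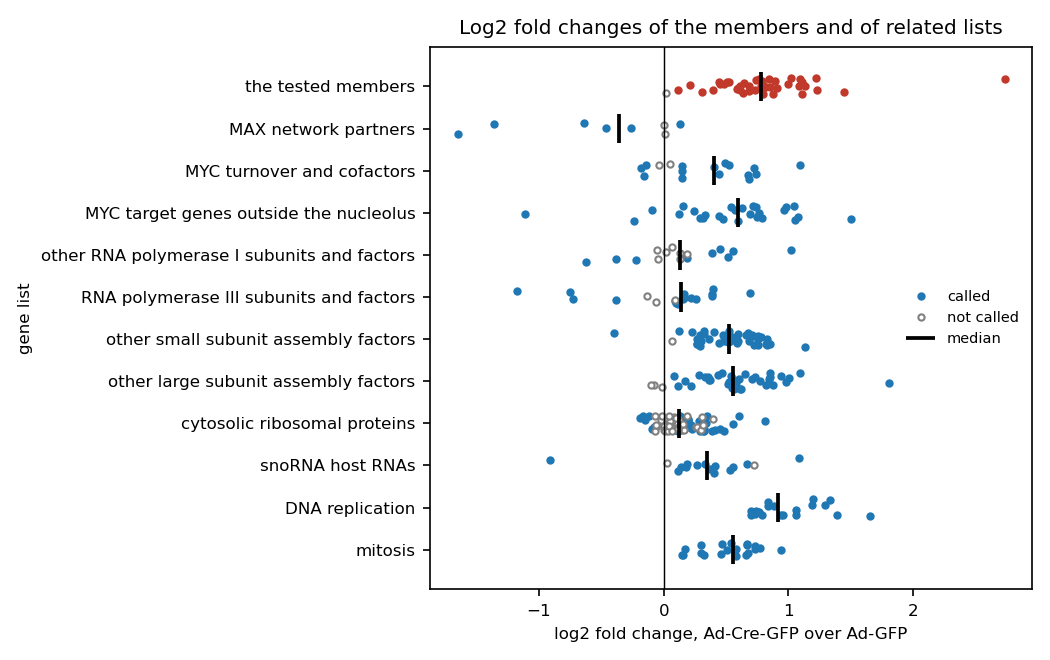
Log2 fold change of each tested gene in the member list and in 11 related lists; filled points were called, open points were not, and black bars are medians. The members (0.78), the further assembly factors (0.53 and 0.55) and DNA replication genes (0.91) have medians well above 0, the ribosomal proteins are near it (0.12), and the MAX network partners are below it (-0.36).

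Markers of other cell types changed too, and stromal, granulosa and theca markers were not all low. Immune markers summed to 11 to 13.2 CPM in Ad-GFP and 6.62 to 7.3 CPM in Ad-Cre-GFP libraries, with Adgre1 at 0 throughout; of 2 tested, Cd14 fell (-1.23). Endothelial markers summed to 3.02 to 3.13 and 10.2 to 11.6 CPM, with Tie1 at 0; both tested markers rose, Flt1 by 1.62 and Kdr from 0.057 CPM, under the limit of a count of 0, to 2.0 CPM. Stromal fibroblast markers summed to 376 to 395 and 274 to 295 CPM, mostly Col1a1, with Lum and Tcf21 at 0; all 4 tested fell, Dcn from 93.0 to 24.7 CPM (-1.91), Col1a1 slightly (-0.16), and the low Dpt and Pdgfra. Granulosa markers summed to 134 to 146 and 324 to 337 CPM, mostly Inhbb, with Fshr and Cyp19a1 at 0. Of 4 tested, Inhbb (1.27) and the low Amh and Foxl2 rose, and the low Inha (-1.52) fell. Foxl2 was at 0.0456, 0.313 and 0.053 CPM in the controls, under the limit of a count of 0 in replicates 1 and 3. After Cre it was at 0.474 to 0.937 CPM. Theca markers summed to 130 to 131 and 95.7 to 97.7 CPM, mostly Nr5a1, with Hsd3b1 at 0; both tested fell, Star from 25.2 to 5.83 CPM (-2.11) and Nr5a1 slightly (-0.22). Oviduct markers summed to 3.4 to 4.51 and 2.68 to 2.98 CPM, where 1 of 2 tested, Epcam, fell (1.60 to 0.127 CPM), and oocyte markers to at most 0.581 CPM with Zp3 and Figla at 0. Of 13 mitochondrially encoded mRNAs, 6 rose, 2 fell and 5 were not called (median 0.09). The part of these markers in the rise of the members was not tested.

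Other properties of the counts limit single members. Similar pseudogenes were found for 13 of the 46 members, and they held at least 10% of the joint counts for Npm1, Ddx18, Wdr12 and Taf1d. In addition, exons of 16 members overlap exons of a gene on the other strand, 7 of them by at least 100 bases, and how counting treated strand was not stated in the labels. The longest such overlaps were 1240 bases between Tsr1 and Srr, 598 between Noc2l and Samd11, and 361 between Bysl and Ccnd3. Ccnd3 rose as Bysl did, by 0.72 ± 0.04, and Srr fell while Tsr1 rose (-0.43 ± 0.12).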

How the data were processed

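Poly(A) RNA of 3 Ad-GFP and 3 Ad-Cre-GFP samples was sequenced. The authors deposited raw gene counts made from BAM files, per the file headers. Build GRCm38 and the tools kallisto 0.46.2 and sleuth 0.30.1 appear in the submitters' processing notes. The aligner, counter, and handling of strand and of multiply mapped reads were not given in the sources used here; genes with copies or antisense partners are therefore uncertain. Symbols came from GENCODE M21 (GRCm38): 48058 IDs matched, and the 382 others held 0.0381% of counts. Polr1f, Polr1g and Polr1h are listed there as Twistnb, Cd3eap and Znrd1. Riok2, Snhg4 and Snhg7 were not analysed here.

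After filterByExpr and TMM, edgeR 4.0.16 in R 4.3.3 was fitted (quasi-likelihood, robust, no block). SE is the log2 change over the square root of F. The test was also run on simulated data with 200 changed genes, as many up as down. In the real data 69.8% of tested genes were called, so that run does not show how the test behaves when most genes change. CPM are TMM-scaled. A count of 0 allows up to 3 counts, 0.099 to 0.161 CPM, covering counting error only. As a check for a library deposited more than once, pairs within a group gave a chi-square per gene of 2.04 to 4.27 (counting noise gives about 1), and none was merged; this does not show that they are separate cultures. The labels do not say whether they are, so p-values measure only library-to-library spread, possibly technical. Copies were sought with minimap2 2.31 (at least 200 bases at 90% identity, so a match need not be near-identical); their log2 ratios are of mean CPM, without a test.

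The members and lists were chosen with earlier results of these data known. By rule, the 4 MYC family members are given by library, as are, per role, the largest rise and fall and every member not called, and from each list up to 2 called rises and falls. Other genes and all ratios between genes were picked after seeing their values. Tried as alternatives were 2 other scalings, 2 other filters, DESeq2 1.42.0, limma-voom (limma 3.58.1), a fit without robust dispersion, a replicate block, leaving out each library and, added after seeing the data, thinning to the smallest library total.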

Additional observations from a re-analysis of the deposited data

How the results depend on the processing

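The 44 rises and 0 falls among the members were the same counts in every alternative run, including DESeq2, limma-voom and the fits without each library in turn. In the main edgeR fit the lowest log2 change of a tested member was 0.02, so no threshold could give a fall there. The median log2 change of the members lay between 0.744 (without Ad-GFP replicate 3) and 0.809 (without Ad-Cre-GFP replicate 3), while the median of all tested genes lay between -0.019 and 0.060. With the replicate block, 44 members rose, 0 fell, the median was 0.783 and 10478 genes were called, against 10344 without it. Same-numbered libraries of both groups correlated by 0.005 to 0.051 in their deviations from the group means, and differently numbered ones by -0.07 to 0.023. Ad-GFP replicates 1 and 2 correlated most with their own numbers (0.049 and 0.051). Ad-GFP replicate 3 correlated more with Ad-Cre-GFP replicate 2 (0.016) than with its own number (0.005). These small values do not settle whether the numbers are pairs, and the main fit did not use them as pairs. Of 675 member values under the alternatives, 672 kept their direction and their side of the threshold. The other 3 were values of Polr1c, which changed sign without being called: -0.008 without Ad-GFP replicate 2, -0.006 without Ad-Cre-GFP replicate 3 and -0.013 after thinning; the cause was not tested. Depth limits Mycn, with 1 to 8 counts per library.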
